A study of Mus musculus with 18 samples.

Results

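The 10 AP-1 and EGR immediate early genes Fos, Fosb, Fosl1, Fosl2, Jun, Junb, Egr1, Egr2, Egr3 and Atf3 were followed in mouse gastrocnemius, the large calf muscle. They were taken by name from the 54532 genes of the count table, and all 10 passed the filter on low counts that left 17833 genes for testing. Polyadenylated RNA was sequenced from female C57BL/6 mice in 18 libraries, 3 in each of 6 groups. The mice were flox/flox, with a Zfp697 gene that can be deleted, or mKO, the label for its deletion in muscle. Each genotype was sampled as control, after 10 days of unloading, and after reloading for 3 days. The driver of the deletion, the exons it removes and the age of the mice are not given in the sources used here. The labels do not say whether replicates came from separate animals, so p-values measure the spread between these libraries, which may in part be technical.

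Immediate early genes are transcribed within minutes of a stimulus, from factors already present in the cell, and most of their messages decay quickly. AP-1 is a dimer of a Fos protein with a Jun protein, or of a pair of Jun proteins, and ATF3 belongs to the same leucine zipper class. EGR proteins are zinc finger factors that bind GC-rich elements. In skeletal muscle both families are known to respond to contraction, stretch and injury, in the fibres and in the other cells of the tissue.

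Library totals ran from 45069595 to 51592566 counts. The muscle fibre markers were abundant in every library, with 9 summed genes between 113937 and 159859 CPM (reads of a gene per 1000000 counted, scaled between libraries by the trimmed mean of M-values, TMM). Zfp697 itself was at 0.984 to 1.597 CPM in flox control and 1.05 to 1.31 in mKO control, and at 1.58 to 1.74 in flox unloading against 1.09 to 2.47 in mKO unloading. In reloading it was at 2.33 to 2.79 CPM in flox and 1.47 to 1.95 in mKO (log2 fold change -0.61 ± 0.25 SE, adjusted p = 0.172). These counts cover the whole gene. The genotypes overlapped in control and unloading and were not separated by the test in reloading, and "mKO" below means the libraries labelled so.

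Promoter windows of the mouse reference (RefSeq, GRCm38.p6), the 250 bases before a transcript start, were found for 7 of the 10 members. The windows of Fos, Jun and Egr2 are shown because each holds a TATA element, a CRE-type element or a CArG box, marked in capitals. The Fos window is chr12:85473640-85473889 on the plus strand, and its capitals mark a TATA element, TATAAA, whose first base is 33 bases before the start. The Jun window is chr4:95052223-95052472 on the minus strand, with a CRE-type element of the pattern TGACNTCA at 45 bases, the class of site that ATF and Jun proteins bind. The Egr2 window is chr10:67537619-67537868 on the plus strand, the third of 5 starts listed for the gene, with a CArG box, the binding element of serum response factor, at 72 bases.
Fos: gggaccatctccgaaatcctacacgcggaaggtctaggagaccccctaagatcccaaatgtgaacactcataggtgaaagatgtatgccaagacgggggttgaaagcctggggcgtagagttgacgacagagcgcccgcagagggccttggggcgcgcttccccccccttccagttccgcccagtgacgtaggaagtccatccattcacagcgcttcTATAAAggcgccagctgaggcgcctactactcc
Jun: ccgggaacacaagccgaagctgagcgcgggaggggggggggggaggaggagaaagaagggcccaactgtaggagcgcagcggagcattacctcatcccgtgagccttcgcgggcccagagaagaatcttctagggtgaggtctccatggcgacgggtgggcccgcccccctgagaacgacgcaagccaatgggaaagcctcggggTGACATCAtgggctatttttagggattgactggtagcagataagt
Egr2: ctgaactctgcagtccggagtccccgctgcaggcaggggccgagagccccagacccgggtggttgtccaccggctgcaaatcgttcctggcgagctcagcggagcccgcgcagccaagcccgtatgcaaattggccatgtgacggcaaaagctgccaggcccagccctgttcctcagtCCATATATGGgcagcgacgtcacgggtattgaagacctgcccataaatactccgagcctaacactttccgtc
Among 32851 windows of the same length, searched on both strands, 12.4% held TATAAA, 7.49% the CRE-type element and 1.47% a CArG box. The AP-1 element TGANTCA was in 6.75% of windows and in none of the 7 members' windows, and the EGR element GCGNGGGCG was in 4.7% and in those of Fosb and Fosl2. All 250 bases of the Fosl2 window are also annotated as Fosl2 exon, so that match lies within the annotated gene. A match describes letters in the window, not binding.

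Measured against unloading, reloading raised most of the members in flox muscle and few in mKO muscle. In flox, 7 of 10 members were higher after reloading than after unloading at an adjusted p under 0.05, with 17% of all tested genes called higher in that comparison. They were Fos, Fosl2, Jun, Egr1, Egr2, Egr3 and Atf3, and their CPM ranges did not overlap between the groups, which held for 23.1% of tested genes in that direction. In mKO, 1 of 10 was called higher, Egr1, where 9.53% of tested genes were. The median log2 fold change of the 10 members was 1.11 in flox and -0.02 in mKO, against 0.00 and 0.01 over all tested genes. No member passed the main edgeR test of the difference between these changes, given with the interactions. Against control, reloading raised 6 members in flox, where 12.3% of genes were called higher, and 1 in mKO, where 1.34% were. The members' median log2 fold change against control was 0.06 after unloading and 1.46 after reloading in flox. In mKO it was already 0.48 after unloading and was 0.36 after reloading, so the mKO comparison with unloading starts from a raised level. Unloading against control changed no member in flox, where 5.74% of genes were called in either direction and 0 members, against 20.4% of genes, had an unadjusted p under 0.05. It raised 2 in mKO, Fosl2 and Atf3, where 4.09% of genes were called higher. Comparisons within a genotype share libraries and are not independent of each other.

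**Figure D1:**
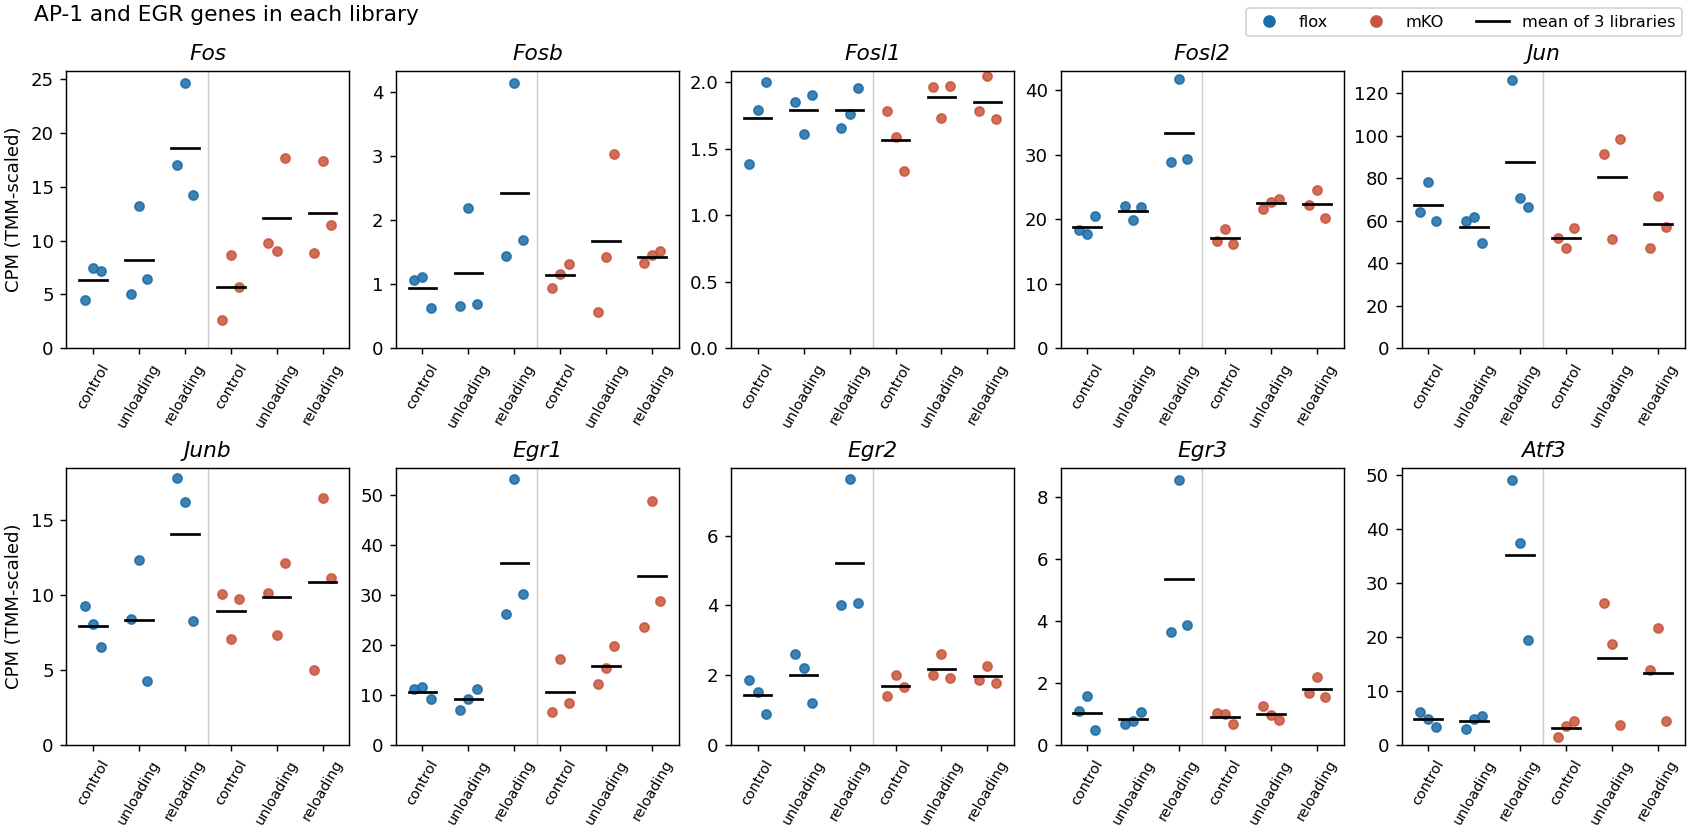
CPM of the 10 members (vertical axes, linear, from 0) in each of the 18 libraries, with flox groups in blue on the left and mKO groups in red on the right of each panel; points are libraries and bars are means of 3. The flox reloading group has the highest mean for every member except Fosl1, which lies between 1.33 and 2.05 CPM throughout.

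The 4 Fos family genes encode the partners that Jun proteins need to form the most active AP-1 dimers, and they did not move together. Fos (ENSMUSG00000021250, chr12:85473890-85477273, plus strand), the founding member, was at 4.51, 7.48 and 7.15 CPM in the 3 flox control libraries and at 5.04, 13.2 and 6.47 after unloading. It reached 17.01, 24.6 and 14.2 CPM after reloading, above every flox unloading and control library. The log2 fold change was 1.18 ± 0.39 (SE) against unloading (adjusted p = 0.0285) and 1.55 ± 0.40 against control (adjusted p = 0.00906). Those calls rested on few libraries. The first was lost without flox unloading replicate 1 (0.92, adjusted p = 0.127), flox unloading replicate 3 (1.03, 0.0971) or flox reloading replicate 2 (0.92, 0.133), and the second without flox reloading replicate 2 (1.29, 0.0515). In mKO, Fos was at 2.64, 8.69 and 5.67 CPM in control, 9.74, 9.01 and 17.6 after unloading and 8.89, 17.3 and 11.4 after reloading. The unloading and reloading libraries of mKO overlapped (log2 fold change 0.05 ± 0.39, adjusted p = 0.949), and both groups lay above control without passing the test (1.10 ± 0.40, adjusted p = 0.103, and 1.15 ± 0.40, adjusted p = 0.145).

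Fosl2 (ENSMUSG00000029135, chr5:32135801-32157842, plus strand) encodes FRA-2, a longer-lived Fos-related protein. Its flox libraries held 18.3, 17.7 and 20.5 CPM in control, 22.1, 19.8 and 21.9 after unloading and 28.8, 41.7 and 29.3 after reloading. Every reloading library exceeded every other flox library, by a log2 fold change of 0.65 ± 0.12 against unloading (adjusted p = 0.000424) and 0.82 ± 0.12 against control (adjusted p = 0.000103). In mKO the order was different, with 16.7, 18.4 and 16.1 CPM in control, 21.6, 22.7 and 23.1 after unloading and 22.2, 24.5 and 20.2 after reloading. Here the step came at unloading (0.40 ± 0.12, adjusted p = 0.049) and reloading added -0.01 ± 0.12 to it (adjusted p = 0.964). The unloading call in mKO sat at the threshold and was lost in 14 of 18 fits that each left out 1 library, with adjusted p-values up to 0.154 without mKO control replicate 3, while its log2 fold change stayed between 0.36 and 0.46.

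Fosb (ENSMUSG00000003545, chr7:19302696-19310051, minus strand), which also gives rise to the stable delta-FosB form, was the rarest Fos message. It was at 0.658, 2.19 and 0.694 CPM in flox unloading and 1.45, 4.15 and 1.69 in flox reloading, so the groups overlapped through replicate 2 of unloading. The difference of 1.04 ± 0.51 missed the threshold (adjusted p = 0.133), and without that library it was 1.84 (adjusted p = 0.0195). In mKO, Fosb was at 0.568, 1.43 and 3.03 CPM after unloading and at 1.32, 1.46 and 1.52 after reloading (-0.23 ± 0.51, adjusted p = 0.806). Fosl1 (ENSMUSG00000024912, chr19:5447703-5455945, plus strand), encoding FRA-1, lay between 1.33 and 2.05 CPM in all 18 libraries. Its 12 fitted differences ran from -0.14 to 0.27 on the log2 scale and none passed the test.

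Measured per kilobase of exon, which allows genes to be compared, Fos had the largest mean share of the Fos family counts in each of the 6 groups. In flox it was 46.1% ± 5.55 (SD, n = 3) in control, 48.3% ± 12.8 after unloading and 61.5% ± 3.38 after reloading. In mKO the shares were 43.5% ± 14.1, 57.0% ± 7.07 and 58.6% ± 6.77. The combined share of Fosl1 and Fosl2 was 49.2% ± 13.9 after unloading and 35.6% ± 3.80 after reloading in flox, and 40.1% ± 8.15 and 38.7% ± 6.39 in mKO. Over both genotypes it was 7.48 percentage points lower after reloading, coded as -7.48, and this did not exceed the spread between libraries (exact two-sided permutation test within genotype, 400 relabellings, p = 0.215, smallest possible p 0.005).

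Jun and Junb encode the other side of the AP-1 dimer, JUNB being a weaker activator that can oppose c-Jun. Jun (ENSMUSG00000052684, chr4:95049034-95052222, minus strand) was the most abundant member per kilobase, with a mean of 21.1 CPM per kilobase over the 18 libraries against 5.96 for Atf3, 4.504 for Fos, 4.35 for Junb, 4.33 for Egr1, 2.33 for Fosl2, 1.04 for Fosl1, 0.71 for Egr2, 0.41 for Egr3 and 0.23 for Fosb. These means pool all 6 groups, and Atf3 was at only 2.20 CPM per kilobase in flox control and 1.45 in mKO control. The flox libraries of Jun held 64.1, 78.4 and 60.1 CPM in control, 60.04, 61.9 and 49.4 after unloading and 127, 70.7 and 66.5 after reloading. The reloading libraries lay above the unloading ones but overlapped the controls, and replicate 1 stood far above the others. Against unloading the change was 0.62 ± 0.23 (adjusted p = 0.0497), just inside the threshold. It was 0.26 without flox reloading replicate 1 (adjusted p = 0.386) and 0.53 without flox unloading replicate 3 (0.152), and the call was lost in 12 of 18 fits that left out 1 library. The call was also lost with DESeq2 (adjusted p = 0.07), with a replicate block in edgeR (0.0655) and with only the groups compared in the fit (0.0607).

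In mKO muscle, Jun was at 52.1, 47.0 and 56.6 CPM in control, 91.7, 51.7 and 98.7 after unloading and 47.1, 71.6 and 57.3 after reloading. The unloading group held both the highest mKO values and a library within the control range. Neither the change at unloading (0.64 ± 0.23, adjusted p = 0.104) nor that at reloading (-0.46 ± 0.23, adjusted p = 0.19) passed the test. Both passed without mKO unloading replicate 2, the low library, at 0.87 (adjusted p = 0.0212) and -0.69 (adjusted p = 0.0348). Junb (ENSMUSG00000052837, chr8:84974484-84978718, minus strand) was at 8.39, 12.3 and 4.27 CPM in flox unloading and 17.8, 16.2 and 8.27 in flox reloading, with overlap. The difference was 0.76 ± 0.38 (adjusted p = 0.136), or 1.15 without flox unloading replicate 2 (adjusted p = 0.0469). In mKO reloading it was at 4.98, 16.5 and 11.1 CPM, a range that took in every mKO unloading library (0.14 ± 0.38, adjusted p = 0.836). Jun shares 232 exon bases with the antisense gene Junos and Junb shares 173 with Prdx2 on the opposite strand, and the counting options recorded with the table name no strand setting, so reads from those bases cannot be told apart.

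Atf3 (ENSMUSG00000026628, chr1:191170296-191218039, minus strand), a stress-induced factor that pairs with Jun proteins, had the widest range of group means of the 10 by fold. Its flox libraries were at 6.03, 4.81 and 3.37 CPM in control, 3.00, 4.80 and 5.33 after unloading and 49.0, 37.4 and 19.4 after reloading. All 3 reloading libraries were far above the rest of flox, by 3.01 ± 0.60 against unloading (adjusted p = 0.000898) and 2.89 ± 0.60 against control (adjusted p = 0.00184). In mKO, control libraries held 1.502, 3.42 and 4.46 CPM, unloading libraries 26.3, 18.6 and 3.61 and reloading libraries 13.8, 21.7 and 4.51. High and low libraries were thus mixed in each of the mKO unloading and reloading groups, and replicate 3 was the low library in both. The rise at unloading was called (2.37 ± 0.61, adjusted p = 0.0238), although the groups overlapped through that library, and reloading against unloading was -0.27 ± 0.55 (adjusted p = 0.781). Reloading against control in mKO measured 2.09 ± 0.60 and did not pass (adjusted p = 0.0761, or 0.0391 with DESeq2). The unloading call was lost without mKO control replicate 1 (2.03, adjusted p = 0.0967), mKO control replicate 2 (2.43, 0.0707) or mKO unloading replicate 1 (1.83, 0.125).

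Of the 3 EGR genes, Egr1 rose with reloading in both genotypes and Egr2 and Egr3 in flox. Egr1 (ENSMUSG00000038418, on chromosome 18), the most abundant and the usual first responder of the family, was at 11.2, 11.5 and 9.25 CPM in flox control, 6.93, 9.22 and 11.2 after unloading and 26.2, 53.1 and 30.1 after reloading. In mKO it was at 6.56, 17.1 and 8.29, then 12.2, 15.5 and 19.8, then 23.6, 48.7 and 28.7. In both genotypes every reloading library was above every unloading library. The rise was 2.002 ± 0.34 in flox (adjusted p = 0.000219) and 1.09 ± 0.33 in mKO (adjusted p = 0.0271), and against control 1.77 ± 0.34 (adjusted p = 0.000997) and 1.66 ± 0.34 (adjusted p = 0.0157). Both mKO calls depended on single libraries. The first was lost without mKO unloading replicate 1 (0.93, adjusted p = 0.119), mKO unloading replicate 2 (1.074, 0.0633) or mKO reloading replicate 2 (0.72, 0.165), and the second without mKO control replicate 1 (1.41, 0.085), mKO control replicate 3 (1.51, 0.0759) or mKO reloading replicate 2 (1.29, 0.104).

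Egr2 (ENSMUSG00000037868, chr10:67535475-67542188, plus strand), known for its role in Schwann cell myelination and in lymphocytes, was at 1.85, 1.51 and 0.90 CPM in flox control, 2.61, 2.21 and 1.21 after unloading and 3.997, 7.61 and 4.06 after reloading. The rise against unloading was 1.38 ± 0.30 (adjusted p = 0.00165). The mKO libraries held 1.39, 1.99 and 1.65 CPM in control, 2.01, 2.62 and 1.92 after unloading and 1.85, 2.25 and 1.78 after reloading, an overlapping set with a reloading difference of -0.15 ± 0.30 (adjusted p = 0.783). Egr3 (ENSMUSG00000033730, chr14:70077203-70082614, plus strand), needed for muscle spindle formation, rose most by fold within the family in flox, from 0.679, 0.765 and 1.06 CPM after unloading to 3.65, 8.56 and 3.87 after reloading (2.68 ± 0.37, adjusted p = 3.66e-05). In mKO it went from 1.24, 0.955 and 0.791 to 1.69, 2.20 and 1.56 CPM without overlap, a difference of 0.87 ± 0.38 that did not pass the test (adjusted p = 0.12).

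**Figure D2:**
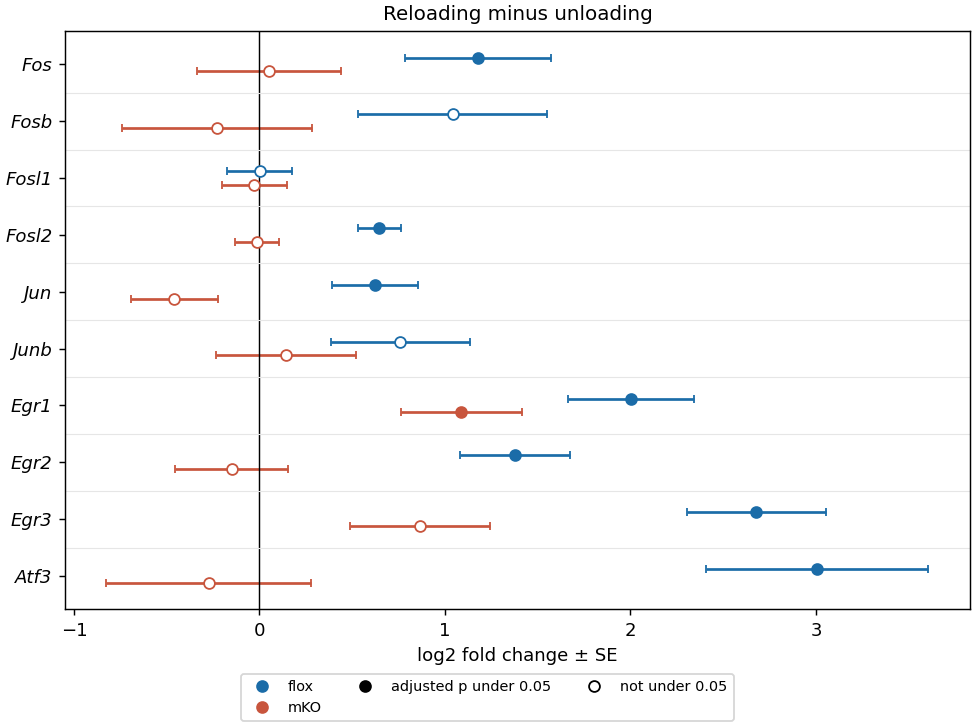
Log2 fold change of reloading over unloading (horizontal axis) for each member in flox (blue) and mKO (red); points are fitted values, bars are ± 1 standard error and filled points passed an adjusted p of 0.05. The filled flox points run from Jun at 0.62 to Atf3 at 3.01, and in mKO only that of Egr1 at 1.09.

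Within reloaded muscle the genotypes differed in 3 members, all lower in mKO: Fosl2, Egr2 and Egr3. In this comparison 3.85% of tested genes were called lower, and the 3 members were also the ones whose ranges did not overlap (12.8% of tested genes lay lower without overlap). Fosl2 differed by -0.58 ± 0.12 (adjusted p = 0.0089), Egr2 by -1.41 ± 0.30 (adjusted p = 0.0108) and Egr3 by -1.56 ± 0.35 (adjusted p = 0.0146). Egr1 was at nearly the same level in both genotypes (-0.11 ± 0.32, adjusted p = 0.896), so that per kilobase it made up 87.8% ± 2.67 (SD, n = 3) of the EGR counts in reloaded mKO muscle and 74.9% ± 1.31 in reloaded flox muscle. Egr2 made up 7.17% ± 1.64 and 14.2% ± 0.71, and Egr3 5.06% ± 1.04 and 10.9% ± 1.10, with no overlap between the genotypes for any of the 3 shares. Differences in Atf3 (-1.40 ± 0.55, adjusted p = 0.159), Jun (-0.58 ± 0.23, adjusted p = 0.167), Fosb (-0.76 ± 0.50, adjusted p = 0.441), Fos (-0.57 ± 0.39, adjusted p = 0.457) and Junb (-0.37 ± 0.37, adjusted p = 0.648) did not pass.

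The 3 genotype calls in reloading leaned on the library with the highest values, flox reloading replicate 2. That library also had the highest summed markers of macrophages and monocytes (385 CPM), endothelium (434) and fibro-adipogenic progenitors (1853) among the 18 libraries, and their part in the calls was not tested. Without it the differences were -0.38 for Fosl2 (adjusted p = 0.0658), -1.03 for Egr2 (0.0933) and -1.04 for Egr3 (0.138). Fewer than 3 calls were also left without mKO reloading replicate 1, where Egr2 (-1.37, adjusted p = 0.052) and Egr3 (-1.51, 0.0683) were lost, and without mKO reloading replicate 3, where Fosl2 (-0.51, 0.0725), Egr2 (-1.34, 0.0725) and Egr3 (-1.46, 0.0971) were lost. With only the reloading groups in the fit, Fosl2 was not called (-0.57, adjusted p = 0.0802). In control and in unloaded muscle no gene of the 17833 was called between genotypes (0% in each). At an unadjusted p under 0.05 there were 4.03% of genes and 0 members in control, and 4.58% and 3 members in unloading. Those 3 were Atf3 (1.88 ± 0.59), Egr1 (0.80 ± 0.34) and Jun (0.50 ± 0.23), each higher in unloaded mKO muscle with an adjusted p of 1.

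**Figure D3:**
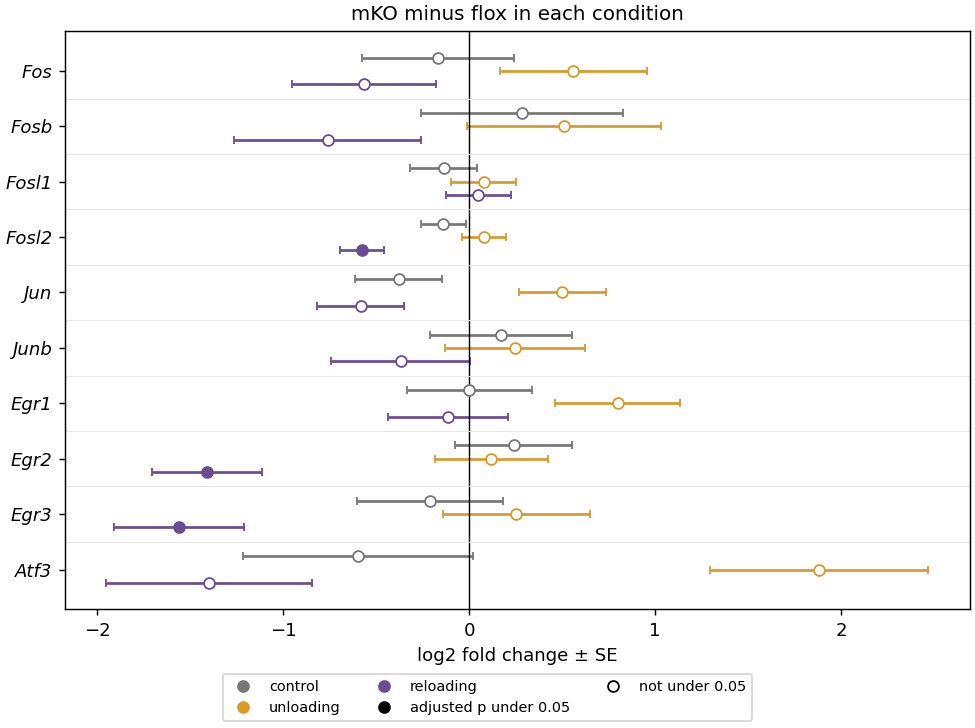
Log2 difference mKO minus flox (horizontal axis) for each member in control (grey), unloading (orange) and reloading (purple); points are fitted values, bars are ± 1 standard error and filled points passed an adjusted p of 0.05. Only Fosl2, Egr2 and Egr3 in reloading are filled, at -0.58, -1.41 and -1.56, while the unloading points of all 10 members lie above 0, up to Atf3 at 1.88.

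Whether the response to reloading itself differed between genotypes was tested as an interaction, the mKO change minus the flox change. For reloading against unloading, none of the 17833 genes passed with edgeR (0%), and 10.5% had an unadjusted p under 0.05. The fitted differences were negative for all 10 members, with a median of -1.10, and 5 of them had an unadjusted p under 0.05. Atf3 differed by -3.28 ± 0.81 (adjusted p = 0.149), Fosl2 by -0.66 ± 0.17 (0.156), Egr2 by -1.53 ± 0.42 (0.184), Egr3 by -1.81 ± 0.53 (0.211) and Jun by -1.08 ± 0.33 (0.238). DESeq2 called Fosl2 (adjusted p = 0.0416) and no other member. Against control, 0.522% of genes passed and no member did; Egr2 came nearest (-1.65 ± 0.43, adjusted p = 0.0881, or 0.0185 with DESeq2), with 13.3% of genes and 3 members at an unadjusted p under 0.05. For unloading against control no gene passed (0%), with 4.11% of genes and 2 members, Atf3 and Jun, at an unadjusted p under 0.05. With the main edgeR fit a difference in response between flox and mKO was therefore not established for any member. For Fosl2 and Egr2 the outcome depended on the method, and a replicate block in edgeR also called Egr2 against control (adjusted p = 0.0431).

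The authors' deposited table named for mKO reloading against unloading lists adjusted p-values of 0.0424 for Fosl2, 0.059 for Egr2, 0.0598 for Atf3 and 0.0717 for Egr3. Across genes its p-values ranked with those of the interaction computed here (Spearman's rho 0.998) and not with those of the mKO comparison of the same name (0.126), so its entries are set beside the interaction. The authors' deposited table named for mKO reloading against control, matched in the same way (0.998), lists 0.0171 for Egr2 and 0.169 for Egr3.

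In some groups 1 library held the highest value for most members. Replicate 2 of mKO reloading held the group's highest value for 9 of 10 members, replicate 3 of mKO unloading for 7 and replicate 2 of flox reloading for 6. These were the highest counts of the 18 libraries, and no other library held more than 5. The share of all tested genes that were highest in each library was not computed, so whether these counts are particular to the members is not known. Across the 18 libraries, deviations from the group mean of Fos went with those of Egr1 (Pearson's r = 0.723 on log2 CPM) and Fosb (0.60), and hardly with those of Atf3 (0.07), Egr3 (0.07) or Fosl1 (-0.02). Egr1 had its highest library where Fos had it in 5 of 6 groups, and Atf3 in 1. These correlations describe 18 libraries that also share depth and composition. Outside the members, the genes whose deviations were most like those of Fos were Hps4 (0.896), Bop1 (0.86), Gtpbp1 (0.855), Pdcd6ip (0.855) and Cep120 (0.853). Only genes averaging 1 CPM or more were compared.

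Over all 18 libraries, the genes whose log2 CPM followed the mean z-score of the 10 members best were Apold1 (Pearson's r = 0.924), an endothelial immediate early gene, then Adcy4 (0.911), Midn (0.907), Zfp568 (0.897) and Myog (0.888), the myogenic factor myogenin. The reloading change of Apold1 against unloading was 2.38 in flox and 0.17 in mKO on the log2 scale, and that of Myog 2.08 and 0.77.

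**Figure D4:**
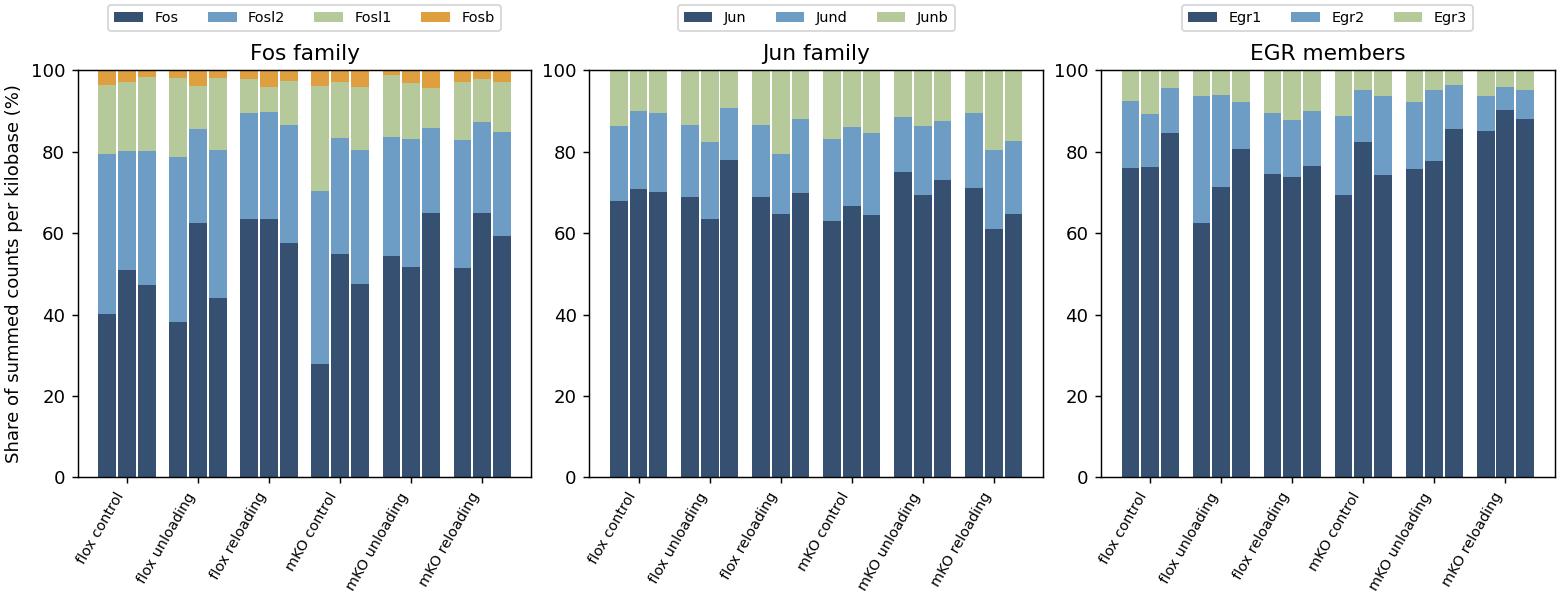
Share of each gene in the summed counts per kilobase of the Fos family, the Jun family (with Jund) and the 3 EGR members (vertical axes, percent) in each of the 18 libraries, 3 bars to a group in replicate order. In the EGR panel Egr1 takes 85.01% to 90.3% in reloaded mKO muscle and 73.9% to 76.4% in reloaded flox muscle.

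Markers of several other cell types moved in the same comparisons, and those of others did not. Schwann cell markers summed to 256 to 266 CPM in flox unloading and 131 to 248 in flox reloading. Of these, 1 of 5 was called lower there, against 14.9% of tested genes. In mKO they summed to 117 to 245 CPM after unloading and 214 to 246 after reloading, with 0 called. None of the 3 tested T cell markers was called. The summed level of 11 macrophage and monocyte markers was 115 to 145 CPM in flox unloading and 260 to 385 in flox reloading, and 82.3 to 128 and 129 to 180 in mKO. Of the 11, 9 rose with reloading in flox, where 17% of tested genes did, and 3 in mKO, where 9.53% did. After reloading 8 were lower in mKO than in flox, against 3.85% of tested genes, and none was at 0 in any group. The 7 endothelial markers summed to 381 to 434 CPM in reloaded flox muscle and 330 to 365 in reloaded mKO muscle, and the 7 markers of fibro-adipogenic progenitors to 1220 to 1853 and 1298 to 1452. After unloading these sums were 294 to 303 and 275 to 310 CPM, and 880 to 1045 and 859 to 1004. With reloading 4 endothelial markers rose in flox and 3 in mKO, against 17% and 9.53% of tested genes. Of the progenitor markers, 5 rose and 1 fell in flox and 3 rose in mKO. In reloaded muscle 1 endothelial, 2 progenitor and 2 of 6 satellite cell and myoblast markers were lower in mKO, against 3.85% of tested genes. Neutrophil markers summed to at most 2.83 CPM after reloading, but to 10.03 in flox unloading replicate 3 and 4.37 in mKO unloading replicate 2. In whole muscle, fewer cells of a type and less RNA per cell cannot be told apart, and the part of these cells in the member changes was not tested.

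Among 30 tested members of a list of other immediate early genes, 5 rose and 1 fell with reloading in flox, while none rose and 7 fell in mKO. The share that rose in flox was no more than the 17% of all tested genes called higher there, and 8.81% of tested genes were called lower in mKO. The flox risers included Plk3, a stress-activated kinase (1.75 ± 0.30, adjusted p = 0.000255), Socs3, the feedback inhibitor of cytokine signalling (1.28 ± 0.27, adjusted p = 0.00147), Btg2, an antiproliferative factor (0.84 ± 0.19, adjusted p = 0.00201), and Nab2, a corepressor of EGR proteins (0.84 ± 0.27, adjusted p = 0.025). The mKO fallers included the matricellular genes Ccn2 (-1.18 ± 0.26, adjusted p = 0.00409) and Ccn1 (-0.99 ± 0.26, adjusted p = 0.0126) and the Krüppel-like factors Klf2 (-0.90 ± 0.28, adjusted p = 0.0305) and Klf6 (-0.88 ± 0.13, adjusted p = 0.000263). These falls are from the unloading level. Unloading against control had raised 6 of the 30 in mKO, against 4.09% of tested genes, and reloading against control lowered 1. Mean mKO levels in control, unloading and reloading were 33.1, 33.7 and 14.9 CPM for Ccn2 and 23.1, 46.1 and 23.2 for Ccn1. They were 10.4, 14.5 and 7.71 for Klf2 and 42.4, 64.1 and 34.9 for Klf6. In reloaded muscle 7 of the 30 were lower in mKO, against 3.85% of tested genes, and none was higher. Ccn2 was at 40.7 to 44.2 CPM in flox and 10.9 to 19.4 in mKO (-1.498 ± 0.26, adjusted p = 0.00373), and Plk3 at 2.89 to 4.21 and 0.922 to 2.05 (-1.37 ± 0.29, adjusted p = 0.0116). The list's medians were 0.30 in flox and -0.21 in mKO for reloading against unloading, and -0.59 for the genotypes in reloading. The flox count of 6 was 3 without flox reloading replicate 1 and 11 without flox reloading replicate 3, and the mKO count of 7 was 4 without mKO reloading replicate 1. The genotype count of 7 was 4 without flox reloading replicate 1, 1 without flox reloading replicate 2, mKO reloading replicate 1 or mKO reloading replicate 3, and 11 without mKO reloading replicate 2 or flox unloading replicate 3.

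Genes known as AP-1 targets formed the second list. Of 16 tested, 12 rose with reloading against unloading in flox (list median 1.30) and 5 in mKO (0.36), against 17% and 9.53% of all tested genes, and none fell in either. Against control, 11 were higher in flox and 2 in mKO, where 12.3% and 1.34% of tested genes were called higher. Timp1, an inhibitor of matrix metalloproteinases, went from 0.310 to 1.27 CPM after unloading to 9.75 to 13.2 after reloading in flox (4.06 ± 0.33, adjusted p = 2.62e-07) and also rose in mKO (3.04 ± 0.34, adjusted p = 2.57e-05). Ccnd1, the cyclin of early cell cycle entry, rose in both genotypes as well (2.35 ± 0.16, adjusted p = 6.18e-08, and 1.77 ± 0.16, adjusted p = 5.21e-06). Ptgs2, the inducible prostaglandin synthase, rose in flox (3.57 ± 0.47, adjusted p = 2e-05) and measured -0.11 ± 0.46 in mKO (adjusted p = 0.907). Il6, a cytokine of muscle and immune cells, stayed at or below 0.463 CPM in these 12 libraries and was called in flox (adjusted p = 0.00372). In mKO the smaller rises included Cd44, a matrix receptor (0.79 ± 0.14, adjusted p = 0.000697), and Tgfb1 (0.51 ± 0.16, adjusted p = 0.0339). After reloading 5 of the 16 were lower in mKO, against 3.85% of tested genes, among them Ptgs2 (-2.63 ± 0.44, adjusted p = 0.00272). The mKO count of 5 rises was 3 without mKO unloading replicate 3, and the genotype count of 5 was 3 without any one of flox reloading replicate 2, mKO reloading replicate 1 or mKO reloading replicate 3.

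Some feedback regulators of MAP kinases, which shut off the signals that induce immediate early genes, rose in each genotype. In flox 6 of 15 rose and 1 fell against unloading, where 17% of all tested genes were called higher and 14.9% lower, and in mKO 4 rose and none fell, against 9.53% and 8.81%. Against control, reloading raised 3 in flox and 1 in mKO, where 12.3% and 1.34% of tested genes were called higher. Dusp5, a nuclear ERK phosphatase, rose in flox (1.68 ± 0.35, adjusted p = 0.00139), and Dusp14 fell there (-0.95 ± 0.23, adjusted p = 0.00429). Spry4 rose in flox (1.24 ± 0.16, adjusted p = 1.63e-05) and in mKO (0.47 ± 0.16, adjusted p = 0.046), as did Spred1 (0.85 ± 0.09, adjusted p = 2.14e-06, and 0.34 ± 0.09, adjusted p = 0.0139). The mKO call of Spry4 held in 5 of 18 fits that left out 1 library, with adjusted p-values up to 0.227 without mKO reloading replicate 2. The phosphatases Dusp6 (0.75 ± 0.14, adjusted p = 0.000641, in flox and 0.61 ± 0.14, adjusted p = 0.00623, in mKO) and Dusp8 (0.81 ± 0.19, adjusted p = 0.00308, and 0.58 ± 0.19, adjusted p = 0.0367) also rose in both genotypes. The mKO count of 4 was 1 when mKO unloading replicate 3 was left out and 2 when mKO reloading replicate 2 was. Between genotypes in reloading Spred1 was the 1 gene called (-0.35 ± 0.09, adjusted p = 0.0297), lost without flox reloading replicate 2, mKO reloading replicate 1 or mKO reloading replicate 3, while 6 regulators were called without mKO reloading replicate 2.

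Of 11 genes for serum response factor, its cofactors and their cytoskeletal targets, 6 rose and 1 fell in flox, against 17% of all tested genes called higher and 14.9% lower. In mKO 4 rose and 1 fell, against 9.53% and 8.81%. None was called between genotypes in reloading, or 2 without mKO reloading replicate 2. Actg1 (1.11 ± 0.13, adjusted p = 7.33e-06, in flox and 0.88 ± 0.13, adjusted p = 0.000203, in mKO), Actb (0.88 ± 0.12, adjusted p = 2.72e-05, and 0.50 ± 0.12, adjusted p = 0.00711) and the coactivator Mrtfa (0.80 ± 0.12, adjusted p = 6.27e-05, and 0.68 ± 0.12, adjusted p = 0.000779) moved in this direction. Acta2, the smooth muscle actin, rose in flox (0.61 ± 0.22, adjusted p = 0.0424), a call that held in 10 of 18 fits that left out 1 library, with adjusted p-values up to 0.152 without flox unloading replicate 1. Vinculin, Vcl, rose in both genotypes (0.44 ± 0.09, adjusted p = 0.000995, and 0.38 ± 0.09, adjusted p = 0.00608).

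Among the other leucine zipper partners of AP-1 none was called higher with reloading. In each genotype 5 of 11 fell with reloading against unloading and none rose, against 14.9% of all tested genes called lower in flox and 8.81% in mKO. Reloading against control called 0 of the 11 in either direction in either genotype. Unloading against control had called 3 higher in mKO, against 4.09% of tested genes. Mean levels of Mafk in control, unloading and reloading were 24.3, 29.4 and 20.8 CPM in flox and 20.6, 33.2 and 19.8 in mKO. Maf fell in both (-0.72 ± 0.10, adjusted p = 4.71e-05, in flox and -0.35 ± 0.10, adjusted p = 0.0227, in mKO), as did Mafk (-0.50 ± 0.15, adjusted p = 0.0141, and -0.74 ± 0.15, adjusted p = 0.00209). Atf7 (-0.32 ± 0.07, adjusted p = 0.0027, and -0.28 ± 0.07, adjusted p = 0.0124) and Atf2 (-0.32 ± 0.07, adjusted p = 0.0024, and -0.32 ± 0.07, adjusted p = 0.00446) also fell in both. Maff fell in mKO (-0.76 ± 0.21, adjusted p = 0.0188) and measured 0.06 in flox (adjusted p = 0.852). After reloading Maf was the 1 gene of the list that differed, higher in mKO (0.48 ± 0.10, adjusted p = 0.0116), where 1.06% of tested genes were called higher. Jund, the third Jun gene, measured 0.64 ± 0.29 in flox (adjusted p = 0.106). Without flox reloading replicate 3 the flox count was 3, and without mKO unloading replicate 1 or mKO reloading replicate 1 so was the mKO count. The Maf difference between genotypes was not called without flox reloading replicate 1, flox reloading replicate 2 or mKO reloading replicate 3.

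Genes of the integrated stress response, the translational control pathway that acts through ATF4, formed the last list. Of 10 tested, 3 fell and none rose with reloading against unloading in flox, and 5 fell and none rose in mKO, against 14.9% and 8.81% of all tested genes called lower. Chac1, a glutathione-degrading enzyme, fell by the most, -4.38 ± 0.54 in flox (adjusted p = 1.1e-05) and -3.41 ± 0.51 in mKO (adjusted p = 0.00021). Ddit4, an inhibitor of mTORC1, changed by -1.26 ± 0.44 (adjusted p = 0.0379) and -2.07 ± 0.46 (adjusted p = 0.00478), and Cebpb by -0.89 ± 0.26 (adjusted p = 0.0145) and -0.90 ± 0.26 (adjusted p = 0.0232). Ppp1r15a, the phosphatase subunit that ends the response, fell in mKO (-1.11 ± 0.20, adjusted p = 0.00117). Without flox unloading replicate 1, flox reloading replicate 2 or flox reloading replicate 3 the flox count was 1. Between genotypes in reloading edgeR called none of these genes, with 1 at an unadjusted p under 0.05, and 2 without mKO reloading replicate 2.

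**Figure D5:**
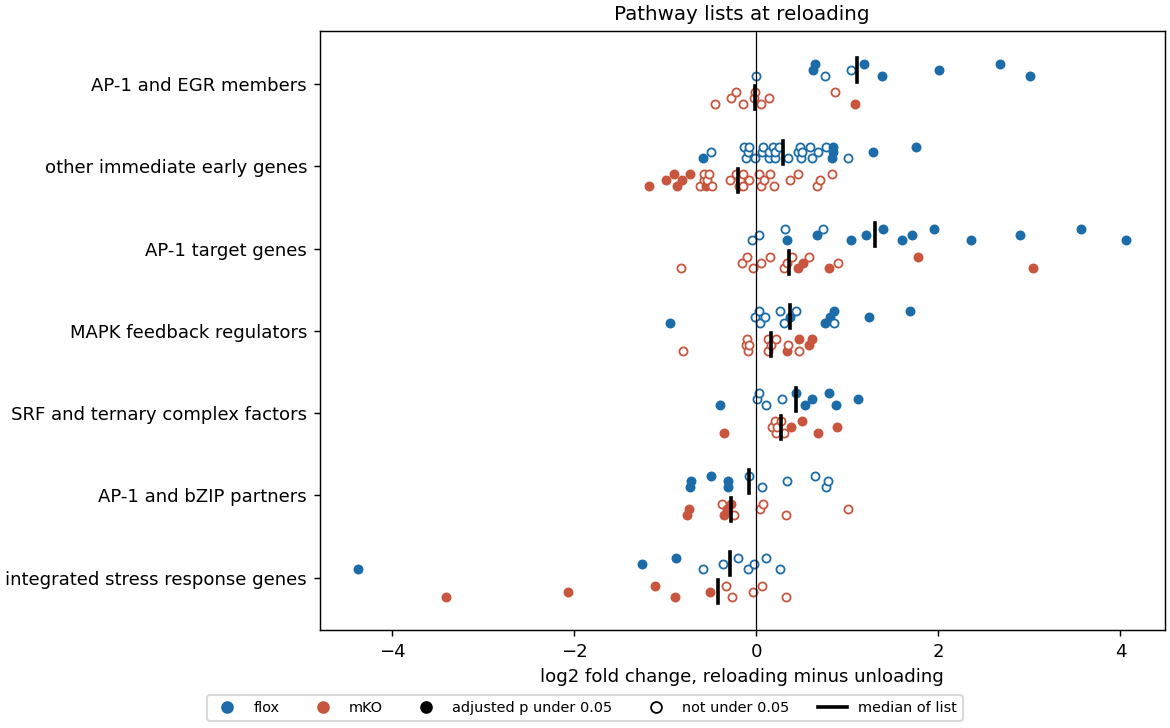
Log2 fold change of reloading over unloading (horizontal axis) for each tested gene of the members and of 6 pathway lists, flox in blue and mKO in red; filled points passed an adjusted p of 0.05 and black bars are list medians. The member median lies at 1.11 in flox and -0.02 in mKO, and that of the AP-1 targets at 1.30 and 0.36.

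Scaling mattered for the reloaded flox libraries. Using total counts in place of TMM moved the median of all genes by 0.109 (log2) in flox reloading against unloading, by 0.146 against control and by -0.134 in mKO against flox in reloading. The share of called genes that were higher went from 53.3% to 71.8%, from 54.3% to 80.5% and from 21.6% to 2.42% in these comparisons, respectively. No called member changed direction under either scaling.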

How the data were processed

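Raw gene counts were used as deposited. Per the submitters' processing notes the tools behind the table were STAR 2.7.3a, the build GRCm38.p6 and featureCounts (2.0.3 in the notes, 1.6.4 and annotation release 94 per the file headers), from libraries made with a strand-marking poly-A kit. The authors' deposited tables of DESeq2 comparisons give log2 fold changes and p-values. Only their adjusted p-values are quoted.

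Counts were fitted with edgeR 4.0.16 in R 4.3.3: TMM factors, filterByExpr defaults (17833 genes), 1 model of 6 group means with 12 residual degrees of freedom, glmQLFit and glmQLFTest, and Benjamini-Hochberg adjustment over all tested genes with a threshold of 0.05. Standard errors are the log2 fold change over the square root of F. CPM used total counts and TMM factors. The script was tested on simulated data: for reloading against unloading in flox, over 17322 genes, 98.5% of 200 genes changed by a fold of 2 were recovered, and 63% for the interaction. Every simulated gene was given the same dispersion, and the changed genes averaged at least 1 CPM. These shares are therefore not the power for the members, whose spread differed (reloading against unloading interaction, SE 0.17 for Fosl2 and 0.81 for Atf3).

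All 10 members were reported; from each list up to 4 called genes by size per genotype (2 most abundant where none was called; some are not reported here), and the 5 genes most like the members. Jund, and Spred1, Ccn2, Plk3 and Ptgs2 in the genotype comparison, were added after their values were seen. The members and lists were chosen with earlier results of these data known. Alternatives were other scalings, filters, designs, DESeq2 1.42.0 and leaving out each library. No pair of the 153 library pairs agreed within sampling noise.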

Additional observations from a re-analysis of the deposited data

How the results depend on the processing

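No called result changed direction under any alternative run. Without a low-count filter the fit gave more calls: 5 members for mKO unloading against control, 3 for mKO reloading against unloading, 5 for mKO reloading against control, 2, 4 and 6 for mKO against flox in control, unloading and reloading, and 4, 8 and 3 for the interactions of unloading, of reloading against unloading and of reloading against control. In that fit the prior degrees of freedom became infinite, where they were 6.00 with the filter. With total counts 1 member was called for mKO unloading. With only the groups compared none was called for mKO reloading against control, and DESeq2 called 2 there and 1 in each reloading interaction. The replicate numbers do not pair the libraries (correlations of -0.07 to 0.13 over 45 pairs, 2 above 0.1). The replicate block called Fos for mKO unloading against control (1.23, adjusted p = 0.0178) and gave 2 members for mKO reloading against control, one of them Fos (1.196, adjusted p = 0.0403), 1 for its interaction and 4 MAP kinase feedback genes between genotypes in reloading. Leaving out 1 library at a time gave 0 to 2 members for mKO unloading, 0 to 1 for mKO reloading against unloading, 0 to 2 for mKO reloading against control and 0 to 3 for mKO against flox in reloading.

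For the pathway lists, total counts gave 3 leucine zipper partners in flox reloading against unloading and, between genotypes in reloading, 15 other immediate early genes, 3 feedback regulators, 2 SRF genes, 8 AP-1 targets and 1 stress response gene. Without the filter there were 14 and 15 other immediate early genes in flox and mKO reloading and 8 AP-1 targets in mKO, and 17, 6, 1, 8 and 2 genes between genotypes in the order above. The filter of at least 1 CPM in 3 libraries gave 2 feedback regulators between genotypes. The fit of only the groups compared gave 3 partners and 1 feedback regulator in mKO reloading and 0 partners between genotypes, and DESeq2 gave 13 other immediate early genes, 4 feedback regulators and 8 AP-1 targets between genotypes. Leaving out 1 library gave, in flox reloading, 3 to 6 partners, 3 to 11 other immediate early genes and 1 to 3 stress response genes. In mKO reloading it gave 3 to 6 partners, 4 to 9 other immediate early genes, 1 to 4 feedback regulators and 3 to 5 AP-1 targets. Between genotypes in reloading it gave 0 to 1 partners, 1 to 11 other immediate early genes, 0 to 6 feedback regulators, 0 to 2 SRF genes, 3 to 7 AP-1 targets and 0 to 2 stress response genes. The reloading difference in the share of Fosl1 and Fosl2 stayed below 0 under the alternatives run, from -10.3 to -4.42 percentage points. Apart from what fewer libraries or genes change by construction, the causes were not tested.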
